A study of Mus musculus with 12 samples.

Results

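In cultured mouse oligodendrocyte precursor cells (OPCs), 9 genes of the heme and NRF2 response were followed, chosen by name out of 55536 annotated genes: the repressors Bach1 and Bach2, their small MAF partners Mafk and Mafg, the activator Nfe2l2 (which encodes NRF2), its inhibitor Keap1, and the target genes Hmox1, Nqo1 and Gclm. RNA was measured by total RNA-seq in 3 groups of 4 labelled replicates. Ctr-OPCs were left untreated, Dexa-treated OPCs received 1 µM dexamethasone, a synthetic glucocorticoid, for 48 h, and IFN-γ-treated OPCs received 100 ng/ml of the cytokine IFN-γ for 48 h. All cultures came from the pooled brains of P4 to P6 pups of either sex from a mixed-background line in which Sox10:Cre switches on an EGFP reporter (RCE:loxP). The replicates came from separate litters. Cells were collected by GFP sorting or on beads for CD140a, the PDGF receptor, and grown with PDGFaa and bFGF. Sox10:Cre marks the whole oligodendrocyte lineage and not only OPCs, and the labels do not say which library came from which way of isolation. They also carry the entry EAE as mouse model, although the protocol describes cultures from pups. The study asked how IFN-γ changes gene regulation in OPCs and considered BACH1 among the factors involved. In other libraries it lowered Bach1 with siRNA in OPCs given IFN-γ for a shorter time, and Hmox1 and some MHC genes rose. The paper proposes that BACH1 holds back the induction of some immune genes by IFN-γ.

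BACH1 and BACH2 are transcription factors that pair with small MAF proteins and repress genes at antioxidant response elements. Heme binds BACH1 and takes it off DNA, which lets NRF2, paired with a small MAF, occupy the same elements. NRF2 is held low by KEAP1, an adaptor that marks it for degradation, so much of its control lies in the protein and is not seen in RNA. The targets include heme oxygenase 1 (Hmox1), which breaks down heme, the quinone reductase Nqo1 and Gclm, the modifier subunit of the enzyme that starts glutathione synthesis.

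The table of Dexa replicate 3 stopped after 33.7% of its transcripts, so the comparisons hold 4 Ctr, 3 Dexa and 4 IFN-γ libraries, with 19209063 to 52074667 reads in genes per library. Of the 9 genes, Mafg alone is listed whole in the shortened table. The OPC label held in these data, with all 6 OPC markers at 1 TPM (transcripts per 1000000 transcripts, corrected for length) or more and a summed level of 751 to 1318 TPM in Ctr, 912 to 1334 TPM in Dexa and 659 to 1269 TPM in IFN-γ libraries. All 9 markers of microglia and macrophages stayed below 1 TPM in every library, with sums of 0.187 to 0.487 TPM in Ctr, 0.281 to 0.493 TPM in Dexa and 0.372 to 0.953 TPM in IFN-γ libraries. Astrocyte markers summed to 11.3 to 39.2 TPM in Ctr, 19.8 to 46.1 TPM in Dexa and 21.9 to 51.7 TPM in IFN-γ libraries, none of the 4 being at 0 throughout. The 5 markers of maturing oligodendrocytes summed to 8.69 to 44.7 TPM in Ctr, 12.5 to 69.8 TPM in Dexa and 7.59 to 49.7 TPM in IFN-γ libraries. Neuronal markers summed to 3.12 to 6.78 TPM, endothelial markers to 0.0488 to 0.225 TPM and erythroid markers to 0 to 0.121 TPM over all libraries. By the test across all genes used further on, 4 of the 6 OPC markers were called lower with IFN-γ: Pdgfra, Cspg4 and Sox10 at log2 fold changes of -0.62, -0.61 and -0.57 and Olig2 at -0.18. Myrf, a regulator of myelin genes, was lower as well (-1.77), as were Aqp4 (-0.85) and the neuronal Snap25 (-0.48), while the astrocyte markers Gfap (3.98) and Aldh1l1 (0.74) and the neuronal Syt1 (1.10) were called higher with IFN-γ. With dexamethasone, Cspg4 (0.65) and Snap25 (0.66) were called higher. The part of these shifts and of other cells in the values below was not tested, and in RNA from whole cultures fewer cells of a type and less RNA per cell cannot be told apart. Both treatments left their mark: Irf1, an IFN-γ-induced transcription factor, stood at 276 ± 31.9 TPM (SD, n = 4) in IFN-γ-treated OPCs against 4.10 ± 0.559 TPM (SD, n = 4) in Ctr-OPCs, and the glucocorticoid-induced gene Fkbp5 at 26.8 ± 3.69 TPM (SD, n = 3) in Dexa-treated OPCs against 9.98 ± 1.59 TPM (SD, n = 4).

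Levels were first compared between the 9 genes in TPM, which takes transcript length into account. In Ctr-OPCs, Gclm stood highest with 17.1 ± 3.34 TPM (SD, n = 4), followed by Keap1 with 13.0 ± 1.79 TPM, Hmox1 with 12.02 ± 2.92 TPM and Bach1 with 11.1 ± 1.97 TPM. Mafg followed with 8.27 ± 1.71 TPM and Nfe2l2 with 7.87 ± 2.67 TPM. The Bach1 level includes Bach1-203, annotated as a retained intron, at 3.17 to 4.99 TPM per Ctr library. The protein-coding Bach1-201 had 5.09 to 7.99 TPM, a range that overlapped those of Mafg and Nfe2l2. The Gclm level includes Gclm-201 at 2.26 to 3.05 TPM and Gclm-206 at 5.12 to 7.73 TPM per Ctr library. Its remainder lay in transcripts with under 10% of the Gclm reads each, so the first place of Gclm depends on them. The lowest levels were those of Nqo1 with 2.36 ± 1.12 TPM, Bach2 with 2.08 ± 0.309 TPM and Mafk with 1.39 ± 0.419 TPM. Neighbours in this order overlapped in range, except that the lowest Nfe2l2 library (5.42 TPM) stood above the highest Nqo1 library (3.78 TPM), and the lowest Bach2 library (1.84 TPM) just above the highest Mafk library (1.81 TPM). Bach1 RNA was thus the more abundant of the BACH pair in these cells, and Mafg RNA the more abundant of both small MAF members. In Dexa-treated OPCs, Hmox1 was second at 18.8 ± 4.85 TPM (SD, n = 3) after Gclm at 19.8 ± 4.70 TPM, and no Keap1 library reached the range of Hmox1. In IFN-γ-treated OPCs, the order began with Gclm at 24.7 ± 8.60 TPM (SD, n = 4), Hmox1 at 22.2 ± 4.43 TPM, Nfe2l2 at 18.4 ± 5.91 TPM and Keap1 at 18.1 ± 2.89 TPM, whose ranges overlapped from one to the next. Bach1 at 11.97 ± 2.07 TPM and Mafg at 10.1 ± 2.83 TPM came below them, and Bach2 at 3.81 ± 0.926 TPM, Nqo1 at 2.61 ± 0.623 TPM and Mafk at 1.19 ± 0.222 TPM stood last without overlap between neighbours. TPM depends on the make-up of the whole library, so treatments are compared on another scale further on.

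**Figure D1:**
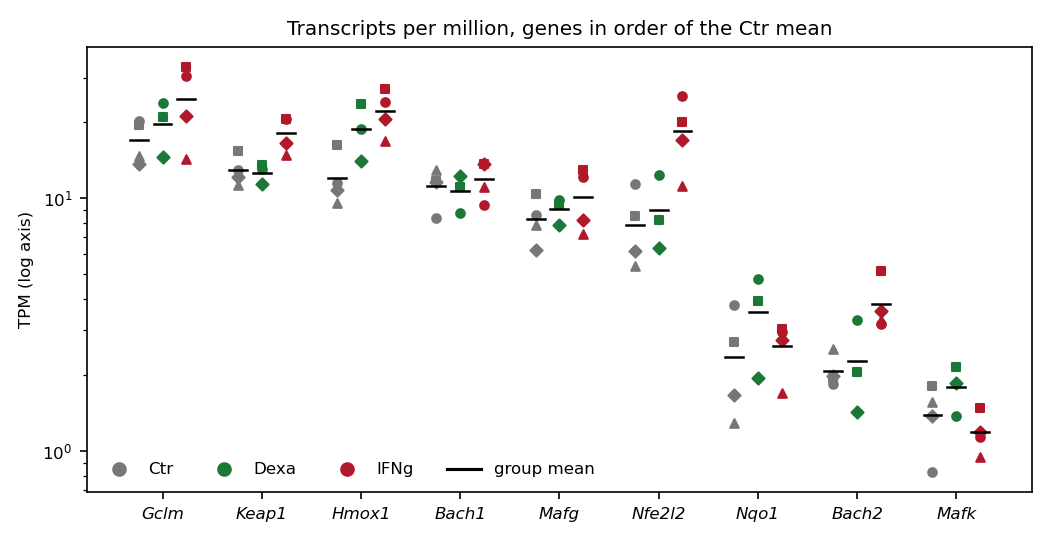
Level of each gene in TPM (vertical log axis) in Ctr, Dexa and IFN-γ (IFNg) libraries, with 1 point per library and a bar at the group mean, genes ordered by the Ctr mean. By the mean, Nfe2l2 stood below Bach1 and Mafg in Ctr-OPCs at 7.87 TPM and above them in IFN-γ-treated OPCs at 18.4 TPM. Levels are sums over the transcripts of a gene, which for Bach1 include one annotated as a retained intron. The Gclm level came mostly from transcripts other than Gclm-201, which held most of its reads.

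The genes lie apart from each other in GRCm38, on chromosomes 16 (Bach1), 4 (Bach2), 5 (Mafk), 11 (Mafg), 2 (Nfe2l2), 9 (Keap1) and 3 (Gclm), while Hmox1 and Nqo1 share chromosome 8. Bach2 has the longest span, 347305 bases. Other genes overlap some of them. Gm17494, with a mean of 1252 reads per library, lies on the strand opposite to Gclm, and Sirt7, with 826 reads, overlaps Mafg on the same strand. The library kit keeps the strand, but whether it was used in counting is not given in the sources used here, so reads in these overlaps are uncertain.

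RefSeq promoter windows (GRCm38.p6, 250 bases before to 50 after a start) were on hand for 8 of the 9 genes, without Hmox1. They were searched on both strands for the core of the antioxidant response element (TGACNNNGC, held by 12.4% of all 32851 windows), the AP-1 or MARE core (TGANTCA, 7.81%), the GAS site (TTCNNNGAA, 8.3%), an IRF core (GAAANNGAA, 8.56%) and a glucocorticoid response half-site (AGAACA, 19%). The antioxidant core letters occur in the windows of Nfe2l2, Gclm, Mafk and Mafg, the GAS letters in that of Bach2, and the half-site letters in those of Bach2, Gclm and Mafk (the last after the start, on the reverse strand). The windows of Bach1, Keap1 and Nqo1 hold none of the 5 motifs, and no window of these genes holds the AP-1 or IRF letters. The 250 bases before the start are shown for the 3 of these genes that both rose with IFN-γ and hold a motif, and for Mafk, which separated the treatments, each in the direction of the gene with the matched letters in capitals. Nfe2l2 (chr2:75704664-75704913, minus strand) has 1 antioxidant core near its far end, Gclm (chr3:122245307-122245556, plus strand) has the reverse complement of that core followed by that of the half-site, Bach2 (chr4:32417185-32417434, plus strand) has a GAS match followed by a reversed half-site, and Mafk (chr5:139791286-139791535, plus strand) has a reversed antioxidant core close to its start. The Bach2 window belongs to the inner of its start sites, that of transcript Bach2-207, and no window was on hand for the outer ones. Bach2-207 took 63.7% ± 18.9 of the Bach2 reads in Ctr and 41.7% ± 19.4 in IFN-γ libraries (SD, n = 4 each), with overlapping ranges. Bach2 rose as a whole gene, and whether RNA from this inner start rose was not tested. A match is a description of the letters only.
Nfe2l2: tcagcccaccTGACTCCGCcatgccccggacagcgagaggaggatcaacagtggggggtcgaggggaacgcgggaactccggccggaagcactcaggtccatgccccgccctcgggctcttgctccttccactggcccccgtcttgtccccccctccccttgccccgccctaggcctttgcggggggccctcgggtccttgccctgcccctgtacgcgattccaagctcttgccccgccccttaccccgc
Gclm: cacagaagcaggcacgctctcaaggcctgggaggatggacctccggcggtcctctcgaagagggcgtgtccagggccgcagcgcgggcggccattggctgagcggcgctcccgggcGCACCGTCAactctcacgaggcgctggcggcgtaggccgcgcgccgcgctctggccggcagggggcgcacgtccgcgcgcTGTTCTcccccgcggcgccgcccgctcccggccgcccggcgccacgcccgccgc
Bach2: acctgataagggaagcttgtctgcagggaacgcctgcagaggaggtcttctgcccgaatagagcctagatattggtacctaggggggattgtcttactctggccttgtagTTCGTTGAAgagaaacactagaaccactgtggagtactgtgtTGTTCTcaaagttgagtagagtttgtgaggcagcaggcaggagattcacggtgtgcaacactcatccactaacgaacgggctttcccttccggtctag
Mafk: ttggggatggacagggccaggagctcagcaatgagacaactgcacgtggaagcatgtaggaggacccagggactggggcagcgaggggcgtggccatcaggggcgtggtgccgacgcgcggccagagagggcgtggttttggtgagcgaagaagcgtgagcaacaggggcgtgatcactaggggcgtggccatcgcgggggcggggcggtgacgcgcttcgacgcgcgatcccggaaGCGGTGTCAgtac

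Treatments were compared on counts per 1000000 reads in genes (CPM), scaled between libraries by the trimmed mean of M values. Differences were tested with edgeR's quasi-likelihood test with the replicate number as a block, two-sided, with Benjamini-Hochberg adjustment over all 18386 genes tested, and a gene was called at an adjusted p under 0.05. All 9 genes passed the filter on low counts. On this scale, which is not corrected for length, Gclm was not the highest gene in Ctr-OPCs. Its mean was 38.4 CPM, below Bach1 (76.8 CPM), Keap1 (63.2 CPM) and Mafg (50.7 CPM). Mafk and Nqo1 rested on the fewest reads, 118 to 368 and 80 to 350 per library, against 1640 to 4255 for Bach1. Same-numbered libraries moved together, so the block matters here: without it, edgeR called 0 of the 9 genes in each of the 3 comparisons, where 1554, 24 and 1578 of all genes were called.

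With IFN-γ, 5 of the 9 genes rose and 0 fell. Nfe2l2 rose most, followed by Hmox1, Gclm, Keap1 and Bach2, while the values of Bach1, Mafg, Mafk and Nqo1 did not pass the test. Over all genes 31% were called in this comparison (15.1% higher and 15.9% lower), so calls were common. The median log2 fold change was 0.28 over the 9 genes and -0.03 over all genes tested.

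Nfe2l2 was at 44.5, 29.3, 18.9 and 23.7 CPM in Ctr replicates 1 to 4 and at 83.0, 56.9, 41.2 and 53.5 CPM in the same replicates with IFN-γ. Replicate 1 was highest and replicate 3 lowest in both groups, and the groups overlapped only in that Ctr replicate 1 stood above IFN-γ replicate 3. Within a replicate number, Nfe2l2 was 1.86-fold to 2.25-fold higher with IFN-γ, in 4 of 4 pairs. The fitted log2 fold change was 1.04 ± 0.07 (SE; edgeR adjusted p = 1.24e-06). Without the block it was 1.01 ± 0.30 (edgeR adjusted p = 0.0680). Nearly all reads of Nfe2l2 were given to 1 transcript, Nfe2l2-201.

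Keap1, which encodes the adaptor that removes NRF2, rose as well. Its values were 67.1, 70.9, 53.4 and 61.3 CPM in Ctr-OPCs and 88.1, 78.7, 74.0 and 71.0 CPM in IFN-γ-treated OPCs. The groups did not overlap, by a margin of less than 1 CPM, as was the case for 14.5% of all genes. The log2 fold change was 0.31 ± 0.06 (SE; edgeR adjusted p = 0.00474), and without the block the edgeR adjusted p was 0.130.

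Of the targets, Hmox1 showed the larger change. It was at 27.3, 33.6, 20.1 and 24.6 CPM in Ctr-OPCs and at 47.2, 46.3, 37.6 and 39.4 CPM in IFN-γ-treated OPCs. Every IFN-γ library stood above every Ctr library, and within pairs Hmox1 was 1.38-fold to 1.87-fold higher. The log2 fold change was 0.71 ± 0.09 (SE; edgeR adjusted p = 2.49e-04), and without the block the edgeR adjusted p was 0.0507. Gclm was at 47.7, 41.9, 30.6 and 33.6 CPM in Ctr-OPCs and at 63.1, 56.3, 34.4 and 47.6 CPM with IFN-γ. The groups overlapped, yet all 4 pairs moved up, by 1.12-fold to 1.42-fold. The log2 fold change of Gclm was 0.38 ± 0.06 (SE; edgeR adjusted p = 0.00130), against an edgeR adjusted p of 0.330 without the block. Nqo1, a classic NRF2 target, was at 8.92, 5.57, 2.70 and 3.80 CPM in Ctr-OPCs and at 5.83, 5.17, 3.76 and 5.19 CPM with IFN-γ. Replicates 1 and 2 were lower and replicates 3 and 4 higher with IFN-γ, and the log2 fold change of 0.03 ± 0.20 did not pass the test (SE; edgeR adjusted p = 0.936).

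The repressors differed in their values. Bach1 was at 61.7, 80.1, 85.3 and 80.0 CPM in Ctr-OPCs and at 59.2, 76.7, 77.1 and 80.0 CPM in IFN-γ-treated OPCs. Replicate 1 was the lowest in both groups and the ranges overlapped almost fully. The log2 fold change of Bach1 was -0.07 ± 0.05 (SE; edgeR adjusted p = 0.318). Bach2, best known from B and T cells, was at 15.0, 16.3, 15.3 and 14.02 CPM in Ctr-OPCs and at 19.0, 17.9, 19.0 and 17.9 CPM with IFN-γ. The groups did not overlap, and the log2 fold change was 0.28 ± 0.07 (SE; edgeR adjusted p = 0.00875). Without the block the edgeR adjusted p of Bach2 was 0.0799, and with offsets for effective transcript length its log2 fold change was 0.69 ± 0.19 (SE; edgeR adjusted p = 0.0238).

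The small MAF partners gave no call with IFN-γ. Mafk was at 3.86, 6.93, 5.86 and 6.26 CPM in Ctr-OPCs and at 4.45, 5.09, 4.28 and 4.50 CPM with IFN-γ. It was lower in pairs 2, 3 and 4 and higher in pair 1, with a log2 fold change of -0.29 ± 0.13 (SE; edgeR adjusted p = 0.122). Leaving out IFN-γ replicate 1 gave -0.43 ± 0.10 (SE; edgeR adjusted p = 0.00904), so this library decides the call for Mafk. Mafg was at 44.1 to 60.6 CPM in Ctr-OPCs and at 44.8 to 66.5 CPM with IFN-γ, with a log2 fold change of 0.10 ± 0.07 (SE; edgeR adjusted p = 0.302).

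**Figure D2:**
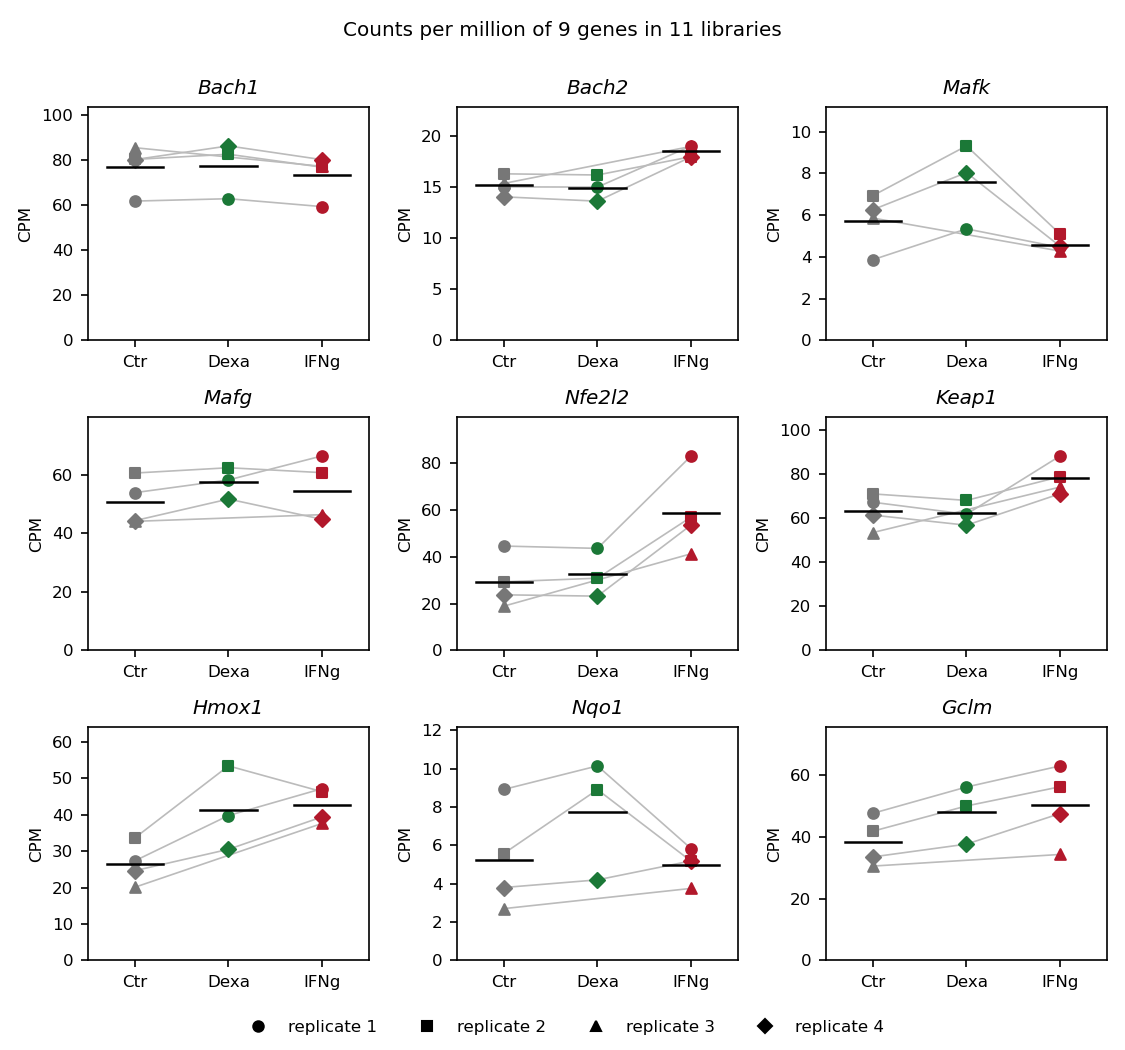
CPM of each gene (vertical axis, from 0) in the Ctr, Dexa and IFN-γ (IFNg) libraries, with 1 symbol per replicate number, a grey line joining libraries of the same number and a black bar at the group mean. For Nfe2l2 the lines keep their order while rising from 18.9 to 44.5 CPM in Ctr-OPCs to 41.2 to 83.0 CPM with IFN-γ, and for Bach1 they run nearly level.

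With dexamethasone, Hmox1 alone of the 9 genes was called. Over all genes 1.5% were called in this comparison (1.24% higher and 0.256% lower). Hmox1 was at 39.8, 53.4 and 30.5 CPM in Dexa replicates 1, 2 and 4, against 27.3, 33.6 and 24.6 CPM in the Ctr replicates of the same numbers. All 3 pairs were higher, by 1.24-fold to 1.59-fold, although the groups overlapped. The log2 fold change was 0.55 ± 0.10 (SE; edgeR adjusted p = 0.0314). This call is weak: without the block the adjusted p was 0.920 with edgeR and 0.353 with DESeq2, and it was lost on leaving out any of the 4 Ctr libraries, Dexa replicate 1, Dexa replicate 2 or IFN-γ replicate 3, with edgeR adjusted p-values up to 0.259.

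The other 8 genes did not pass the test with dexamethasone. Mafk had 5.34, 9.31 and 8.03 CPM in Dexa replicates 1, 2 and 4, above the Ctr library of the same number in 3 of 3 pairs. Its log2 fold change was 0.39 ± 0.15 (SE; edgeR adjusted p = 0.339). Nqo1 had 10.1, 8.91 and 4.20 CPM with a log2 fold change of 0.43 ± 0.21 (SE; edgeR adjusted p = 0.525), and Gclm had 56.2, 50.1 and 37.7 CPM with a log2 fold change of 0.19 ± 0.07 (SE; edgeR adjusted p = 0.351). Both were above Ctr in all 3 pairs. Nfe2l2 had 43.5, 30.8 and 23.2 CPM, with a log2 fold change of 0.02 ± 0.07 (SE; edgeR adjusted p = 0.957). Bach1 at 0.04 ± 0.05, Bach2 at -0.01 ± 0.08, Keap1 at -0.07 ± 0.07 and Mafg at 0.12 ± 0.08 had log2 fold changes (± SE) within 2 standard errors of 0. No gene of the 9 had Dexa and Ctr groups without overlap, which 4.38% of all genes had. Dexa replicate 3, the shortened table, gave Mafg 7.69 TPM, against 7.85 to 9.82 TPM in the other Dexa libraries. With this library included, over the genes it lists whole, the log2 fold change of Mafg was 0.16 ± 0.07 (SE; edgeR adjusted p = 0.324).

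Both treatments share the Ctr libraries, so they were set against each other directly. Over all genes, 33.1% were called between IFN-γ- and Dexa-treated OPCs (16.4% higher and 16.7% lower with IFN-γ). Of the 9 genes, Nfe2l2, Keap1 and Bach2 were higher with IFN-γ and Mafk was lower. The log2 difference was 1.02 ± 0.08 for Nfe2l2 (SE; edgeR adjusted p = 4.30e-06) and 0.38 ± 0.07 for Keap1 (SE; edgeR adjusted p = 0.00288). It was 0.30 ± 0.08 for Bach2 (SE; edgeR adjusted p = 0.0128) and -0.68 ± 0.15 for Mafk (SE; edgeR adjusted p = 0.00535). The IFN-γ libraries of Mafk, at 4.28 to 5.09 CPM, all lay below the Dexa libraries, at 5.34 to 9.31 CPM, and those of Bach2 and Keap1 all lay above, as 19.6% of all genes did one way or the other. The Bach2 difference lost its call with offsets for effective length (edgeR adjusted p = 0.0793) and on leaving out Dexa replicate 1 or 4. Those of Nfe2l2, Keap1 and Mafk were each lost under 2 of 19 alternatives, edgeR without the block among them. They held in all 11 fits without 1 library. Hmox1 did not separate the treatments by the test, at a log2 difference of 0.16 ± 0.10 (SE; edgeR adjusted p = 0.274), nor did Gclm at 0.19 ± 0.07 (SE; edgeR adjusted p = 0.0678) and Nqo1 at -0.40 ± 0.22 (SE; edgeR adjusted p = 0.199). The Hmox1 difference was called on leaving out IFN-γ replicate 2, at 0.30 ± 0.09 (SE; edgeR adjusted p = 0.0348), and that of Gclm on leaving out Ctr replicate 3 or IFN-γ replicate 3.

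**Figure D3:**
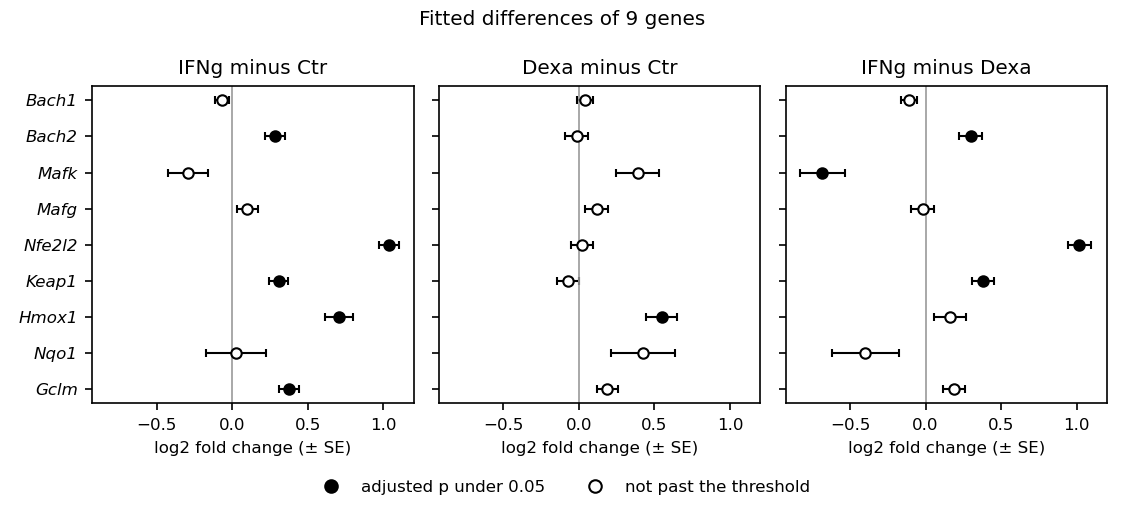
Fitted log2 fold change with its standard error (horizontal axis) of each gene in the 3 comparisons, filled where the adjusted p was under 0.05. IFN-γ gave 5 filled points, the highest for Nfe2l2 at 1.04, and dexamethasone 1, for Hmox1 at 0.55.

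The reads of some genes were divided among several transcripts, which is described here without a test. Salmon, the program behind the tables, estimates these shares from reads that several transcripts can explain. Bach2 has 3 transcripts over 10% of its reads in a group. Bach2-202 starts at position 32238804 of chromosome 4 and Bach2-207 well inside the gene at 32417435, so they begin far apart. The share of Bach2-202 was 15.8% ± 18.1 in Ctr, 14.1% ± 7.26 in Dexa and 39.3% ± 14.6 in IFN-γ libraries (SD, n = 4, 3 and 4). Bach2-207 took 63.7% ± 18.9, 62.6% ± 8.55 and 41.7% ± 19.4. The ranges of Ctr and IFN-γ libraries overlapped for both, and Bach2 had only 259 to 864 reads per library. For Keap1, Keap1-201 took 41.3% ± 4.66 in Ctr-OPCs and 29.8% ± 5.18 in IFN-γ-treated OPCs, and Keap1-205, which starts further out, 23.6% ± 6.88 and 34.2% ± 6.23 (SD, n = 4 each). Keap1-202 stayed near one level, at 32.9% ± 3.0 and 32.96% ± 1.38. Mafk-202 took 14.2% ± 7.89 in Ctr-OPCs, 21.8% ± 12.1 in Dexa-treated and 27.4% ± 9.89 in IFN-γ-treated OPCs. Bach1-203, annotated as a retained intron, took 17.8% ± 2.84 in Ctr, 14.55% ± 1.67 in Dexa and 17.2% ± 1.80 in IFN-γ libraries (SD, n = 4, 3 and 4). Gclm-201 took 61.2% ± 1.70 in Ctr-OPCs and 62.05% ± 3.62 in IFN-γ-treated OPCs. In Hmox1, Nfe2l2, Mafg and Nqo1 a single transcript passed 10% of the reads.

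**Figure D4:**
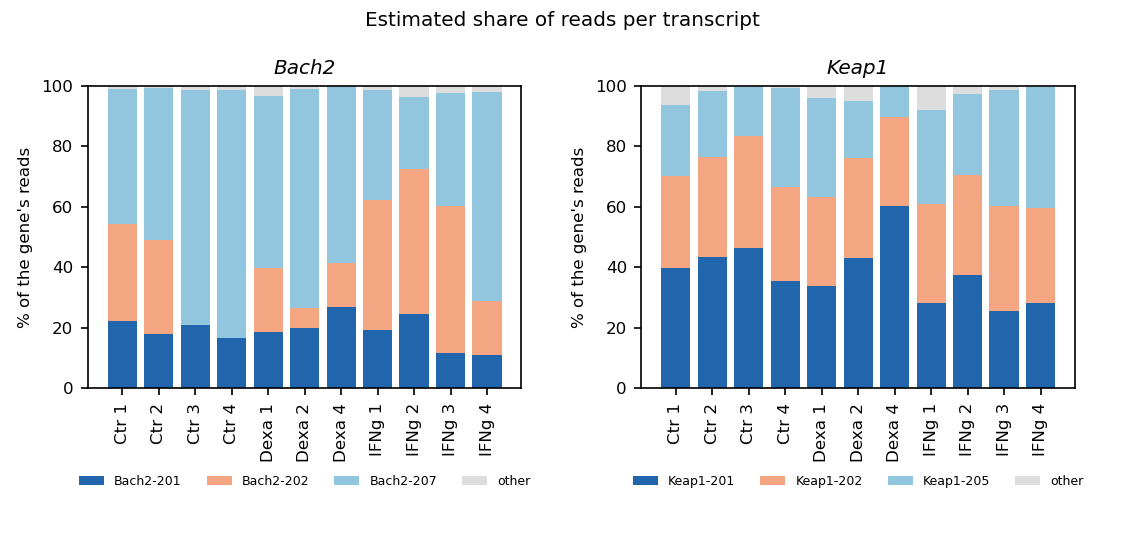
Estimated share of the reads of Bach2 and Keap1 per transcript (vertical axis, percent) in each of the 11 full libraries, as stacked bars. Bach2-202 ranged from near 0 to 32.0% in Ctr libraries and from 17.7% to 48.6% in IFN-γ libraries, with the spread between replicates as wide as the step between groups.

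The rest of the pathway was followed in 61 genes in 6 lists, of which 60 were tested. With IFN-γ, 16 were called higher and 7 lower, which is 38.3% of them beside the 31% of all genes. The higher calls made up 26.7% beside 15.1%, and the lower calls 11.7% beside 15.9%. With dexamethasone, 4 were called higher and 1 lower, 8.33% beside the 1.5% of all genes. Without the block, edgeR called 5 higher and 0 lower with IFN-γ and 0 with dexamethasone. Among the other CNC and small MAF factors, Maff, another small MAF protein, went from 3.03, 3.90, 1.72 and 2.62 CPM in Ctr-OPCs to 16.1, 14.8, 13.8 and 12.1 CPM with IFN-γ. The groups lay far apart, and its log2 fold change of 2.38 ± 0.18 (SE; edgeR adjusted p = 5.04e-06) was the largest in the 6 lists; it passed the test under all 21 alternatives run, without the block too (edgeR adjusted p = 2.83e-04). Maff stood at 2.23 to 4.15 CPM with dexamethasone. Nfe2l3, a relative of Nfe2l2, fell by 0.40 ± 0.13 on the log2 scale (SE; edgeR adjusted p = 0.0474), a call lost under 17 of 19 alternatives (edgeR adjusted p up to 0.228, without Ctr replicate 3), and the erythroid factor Nfe2 had -0.39 ± 0.22 (SE; edgeR adjusted p = 0.205). The 6 genes of NRF2 protein turnover gave 0 calls with either treatment, the largest IFN-γ value being that of the ubiquitin ligase Syvn1, -0.16 ± 0.08 (SE; edgeR adjusted p = 0.139).

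In heme synthesis, 8 of 9 genes were tested (Alas2, the erythroid form of the first enzyme, was not). Urod fell by 0.25 ± 0.07 and Ppox by 0.24 ± 0.07 on the log2 scale with IFN-γ (SE; edgeR adjusted p = 0.0245 and 0.0264), and Alad had -0.21 ± 0.11 (adjusted p = 0.200). The calls of Urod and Ppox were each lost under 10 alternatives, the fits without the block among them. In heme breakdown, heme transport and iron handling, 2 of 14 genes were called with IFN-γ, both lower: the heme transporter Slc48a1 at -0.23 ± 0.07 (SE; edgeR adjusted p = 0.0388) and the porphyrin transporter Abcb6 at -0.21 ± 0.07 (adjusted p = 0.0413), lost under 11 and 14 of 21 alternatives. These 2 are 14.3% of the list, beside the 15.9% of all genes called lower. The iron exporter Slc40a1 had the largest value not called, -0.67 ± 0.43, at under 1 CPM. The median log2 fold change was -0.10 in heme synthesis and -0.06 in breakdown and transport, against -0.03 over all genes.

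The glutathione and thioredoxin list held more calls with IFN-γ than any other of the 6 lists. With IFN-γ, 8 of its 15 genes rose and 1 fell, with a median log2 fold change of 0.34. The higher calls were 53.3% of the list beside 15.1% of all genes, and the lower call 6.67% beside 15.9%. Without the block, edgeR called 4 of its genes higher and 0 lower. Slc7a11, the cystine importer that feeds glutathione synthesis, went from 25.4, 31.4, 13.2 and 20.1 CPM to 95.8, 68.4, 38.0 and 58.6 CPM, without overlap. Its log2 fold change was 1.53 ± 0.12 (SE; edgeR adjusted p = 4.72e-06), and 0.0132 was the adjusted p without the block. Mgst1, a membrane glutathione transferase, rose by 1.22 ± 0.12 on the log2 scale (SE; edgeR adjusted p = 2.89e-05, and 0.245 without the block). The other genes that rose were Srxn1, Txnrd1, Prdx1, Gstm1, Gpx1 and Gsr, at log2 fold changes of 0.29 to 0.87, and Abcc1, an exporter of glutathione conjugates, fell by 0.36. Of these, the calls of Srxn1, Txnrd1 and Gpx1 held under every alternative run. Those of Gstm1 and Gsr were lost under 8 of 19 alternatives each, with an edgeR adjusted p of 0.749 for Gstm1 and 0.559 for Gsr without the block and of up to 0.0944 and 0.0586 with 1 library left out. The calls of Abcc1 and Prdx1 were lost under 6 of 21 and 2 of 19 alternatives, the fits without the block among them. Gclc, the catalytic partner of Gclm, was not called at 0.08 ± 0.09 (SE; edgeR adjusted p = 0.549), and Gsta4 had 0.34 ± 0.14 (SE; edgeR adjusted p = 0.0844). In the NADPH, quinone and xenobiotic list, 6 of 13 genes rose and 1 fell, with a median of 0.23. The higher calls were 46.2% of this list beside 15.1% of all genes, and the lower call 7.69% beside 15.9%. Without the block, edgeR called 0 genes of this list. Osgin1 rose by 1.74 ± 0.37 (SE; edgeR adjusted p = 0.00474) at 0.294 CPM in Ctr-OPCs and 0.933 CPM with IFN-γ, and Aox1, an aldehyde oxidase, by 0.84 ± 0.18 (adjusted p = 0.00622), neither called without the block. Akr1b8 had 1.02 ± 0.37 at under 1 CPM (SE; edgeR adjusted p = 0.0642).

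The 5 pathway genes called with dexamethasone were Aox1 at 1.06 ± 0.20, Gstm1 at 0.97 ± 0.14, Slc7a11 at 0.71 ± 0.13, Fth1 at 0.51 ± 0.10 and Txn1 at -0.47 ± 0.07 (log2 fold change ± SE, edgeR adjusted p = 0.0315, 0.00798, 0.0260, 0.0467 and 0.00820). Fth1, the ferritin heavy chain that stores the iron set free from heme, was at 334, 254 and 177 CPM in Dexa replicates 1, 2 and 4 and at 211, 170 and 159 CPM in the same Ctr replicates. Hmox1 and Fth1 were thus higher in all 3 Dexa pairs, while Fth1 had a log2 fold change of -0.05 ± 0.09 with IFN-γ (SE; edgeR adjusted p = 0.710). Of the 14 genes of heme breakdown, heme transport and iron handling, only Fth1 was called with dexamethasone. Hmox2, Blvra, Blvrb and Ftl1 had means of 46.1, 13.4, 6.14 and 763 CPM in Dexa-treated OPCs. In Ctr-OPCs their means were 49.2, 14.2, 6.93 and 734 CPM. Set against each other, IFN-γ-treated OPCs had less Fth1 than Dexa-treated OPCs, by -0.56 ± 0.11 on the log2 scale (SE; edgeR adjusted p = 0.00241), and more Slc7a11, by 0.83 ± 0.13 (adjusted p = 7.41e-04). All 5 dexamethasone calls were lost without the block. Over all alternatives, the call was lost under 12 of 19 for Fth1, 11 of 21 for Aox1, 9 of 19 for Slc7a11, 8 of 19 for Txn1 and 5 of 19 for Gstm1. With 1 library left out, the edgeR adjusted p rose to 0.339 for Fth1, 0.251 for Aox1, 0.246 for Slc7a11 and 0.0956 for Gstm1, each on leaving out Dexa replicate 2, and to 0.0753 for Txn1 on leaving out Dexa replicate 1 or Ctr replicate 2.

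**Figure D5:**
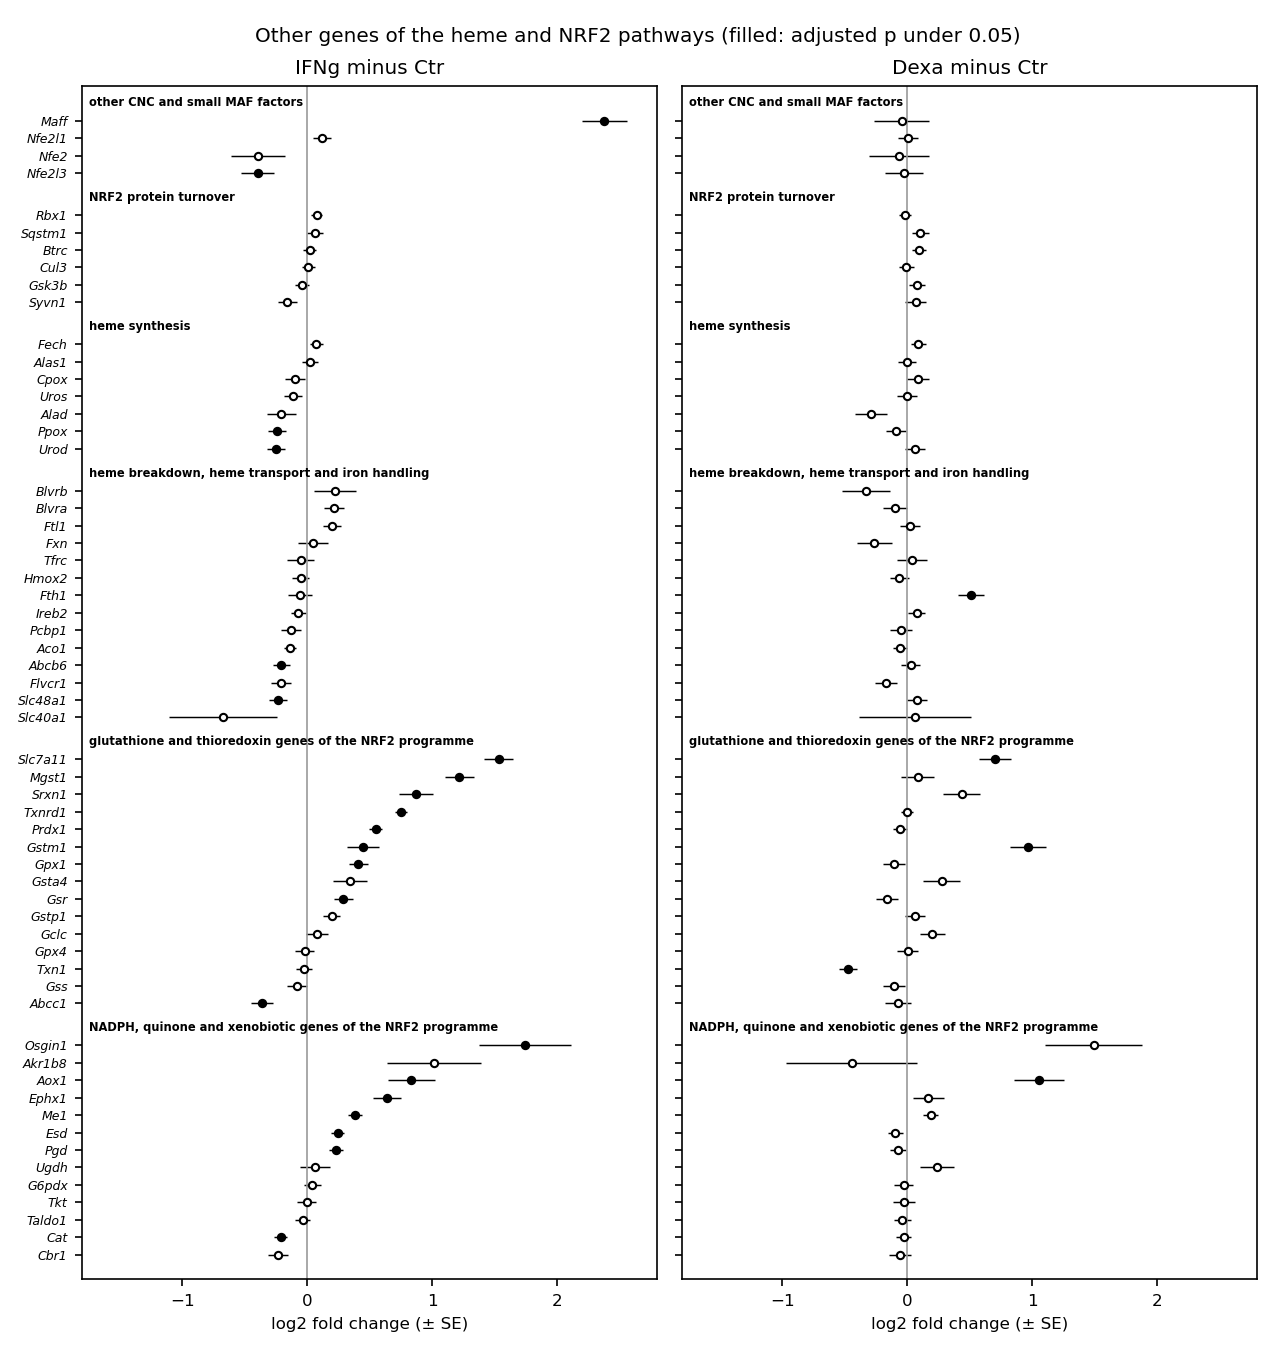
Log2 fold change with its standard error (horizontal axis) of other genes tested, by list, with IFN-γ (left) and dexamethasone (right), filled where the adjusted p was under 0.05. Filled points with IFN-γ gather in the lists of glutathione, thioredoxin, NADPH and quinone genes, and Maff stands far from 0 at 2.38. Without the replicate block, edgeR called 4 genes of the glutathione and thioredoxin list and 0 of the NADPH and quinone list.

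The likeness of expression patterns was measured by Pearson's correlation of log2 CPM over the 11 libraries, after the mean of each replicate number was removed, among 13971 protein-coding genes, and is a description. The genes closest to Nfe2l2 were Gsdmd, Mpeg1 and C4b (r = 0.999 each), genes that were themselves far higher with IFN-γ, by 4.61, 5.24 and 7.83 on the log2 scale. Closest to Hmox1 were Cbs (r = 0.980), Akap12 (r = 0.980) and Gng3 (r = 0.978), which were higher with both treatments. Closest to Bach1 were Agbl3 (r = 0.996), Ncoa4, the ferritin receptor of autophagy (r = 0.981), and Fan1 (r = 0.964). Among the 9 genes, on the same scale, Nfe2l2 went with Bach2 (r = 0.966), Keap1 (r = 0.913), Gclm (r = 0.845) and Hmox1 (r = 0.738), and opposite to Bach1 (r = -0.810) and Mafk (r = -0.748). These points share libraries and a common step between groups, and Nqo1 followed none of the others above r = 0.342. A correlation does not give the size of a change. Bach1 and Mafk were not called with IFN-γ, at log2 fold changes of -0.07 and -0.29.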

How the data were processed

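Total RNA-seq libraries of cultured OPCs were used as the authors quantified them. After trimming, the authors quantified the reads with Salmon (0.8.2, per the submitters' processing notes), which gave an estimated count, a TPM value and an effective length for every transcript of a library in the deposited tables. Transcript identifiers matched GENCODE M21 on GRCm38, and 0 of 141862 transcripts lacked a gene. The authors also deposited DESeq2 comparisons (mean count, log2 fold change, its error, p-value), which were not used.

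Gene counts are sums of the estimated counts of a gene's transcripts, rounded. The table of Dexa replicate 3 broke off after 47855 transcripts and was left out of the main fits. Genes that reached 10 counts in 3 or more libraries entered 1 fit over 11 libraries with edgeR 4.0.16 (R 4.3.3): TMM scaling, the quasi-likelihood test, the replicate number as a block and Benjamini-Hochberg adjustment at 0.05. The standard error is the size of the log2 fold change over the square root of its F statistic. The methods name DESeq2 for these libraries without covariates. edgeR with the block was chosen here because same-numbered libraries deviated together, and DESeq2 1.42.0 was run with and without the block as an alternative. The choice was made with an earlier analysis of these data known. The fitting code was tested on simulated data.

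The labels number the replicates 1 to 4 in each group and state separate litters. Deviations from the group means correlated at 0.408 to 0.731 in the 10 pairs of libraries with the same number from different groups. In the 30 pairs with different numbers they correlated at -0.628 to 0.513. Libraries of the same number thus deviated together, although the ranges overlapped. Deviations from a group mean add up to 0, so the values of both kinds of pairs depend on each other. Replicates 3 and 4 share a title prefix, whose meaning is not stated. They were also the libraries most alike within Ctr and within IFN-γ (chi-square per degree of freedom 24.1 and 22.0). Whether the numbers stand for litters alone or also for another shared step cannot be told apart. Within groups no libraries agreed within sampling noise (chi-square per degree of freedom 22.0 to 219).

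One gene of the pathway lists is counted in the totals but not reported here. The 9 genes and the gene lists were chosen with earlier results of these data known. Of each pathway list the text names every gene called with IFN-γ or dexamethasone with a log2 fold change of 1 or more in size, otherwise the 2 called genes with the largest IFN-γ change, and the largest IFN-γ change not called. Further genes were named after their values were seen: those called with dexamethasone, Nfe2l3, Gclc, Abcc1 and the other genes of the glutathione list that rose. Alternatives were RLE scaling, no filter on low counts, effective-length offsets, no block, DESeq2, each library left out, Dexa replicate 3 included, and, chosen after seeing the data, the same 11 libraries over the genes of that table and the fits without all libraries numbered 1 or 2. Precision covers counting error and the spread between libraries, and duplicates from PCR were not separated from true molecules.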

Additional observations from a re-analysis of the deposited data

Results flagged for a closer look

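In groups of 4 libraries, a value was marked when its gap to the nearest other value exceeded the limit of Dixon's test for 4 values at 95%. Of 70 groups, 4 were marked, where chance marks about 1 in 20. Bach1 in IFN-γ replicate 1 was the lowest of its group at 59.2 CPM, against 76.7 to 80.0 CPM in the others. The iron exporter Slc40a1 was lowest in Ctr replicate 1 at 0.216 CPM. IFN-γ replicate 1 also held the highest Fth1 at 211 CPM and the highest Txn1 at 392 CPM of its group. All 4 values belong to libraries numbered 1. The other replicate 1 libraries stood the same way for Bach1 (61.7 CPM in Ctr, 62.7 CPM in Dexa), Fth1 (211 CPM in Ctr, 334 CPM in Dexa) and Txn1 (396 CPM in Ctr, 281 CPM in Dexa).

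The effects of IFN-γ and dexamethasone differed by the direct test for 4 of the 9 genes, with log2 differences (IFN-γ minus Dexa) of 1.02 for Nfe2l2, 0.38 for Keap1, 0.30 for Bach2 and -0.68 for Mafk. Of the pathway genes named, they differed by 2.42 for Maff, 1.46 for Akr1b8, 1.13 for Mgst1, 0.83 for Slc7a11, 0.75 for Txnrd1, 0.61 for Prdx1, 0.51 for Gpx1, 0.45 for Txn1, 0.45 for Gsr, 0.44 for Srxn1, -0.23 for Abcb6, -0.31 for Urod, -0.31 for Slc48a1, -0.52 for Gstm1 and -0.56 for Fth1. Without the block, edgeR called the difference for 3 of these 19 genes: Maff (adjusted p = 8.32e-04), Txnrd1 (adjusted p = 0.00903) and Gpx1 (adjusted p = 0.0340). Akr1b8 had means of only 0.117 CPM with dexamethasone and 0.398 CPM with IFN-γ, and its difference lost the call under 15 of 19 alternatives. The call was also lost under 11 of 21 alternatives for Abcb6 and 10 of 19 for Srxn1. For Gstm1, Slc48a1 and Urod it was lost under 7 of 19, 6 of 21 and 5 of 19.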

How the results depend on the processing

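Of 519 alternative values for the 9 genes over the 3 comparisons, 484 kept direction and side of the threshold or stayed uncalled, 29 lost a call, 6 gained one and none turned a called direction. Without the replicate block, edgeR called 1554, 24 and 1578 of all genes for IFNg minus Ctr, Dexa minus Ctr and IFNg minus Dexa and 0, 0 and 0 of the 9 genes, and DESeq2 called 2328, 101 and 2372 genes and 3, 0 and 2 of the 9. DESeq2 with the block called 459 genes for Dexa minus Ctr, and no filter on low counts gave 645. Including Dexa replicate 3, over the genes it lists whole, gave 2068, 122 and 2443 genes, and the 11 full libraries over the same genes gave 1983, 69 and 2120; fewer genes are tested there, and of the 9 only Mafg, so no count of the 9 was made. Without all libraries numbered 1, 130 genes and 0 of the 9 were called for Dexa minus Ctr. Without all numbered 2, 3360, 38 and 3250 genes were called, and 0 of the 9 for Dexa minus Ctr. Leaving out 1 library gave 78 to 399 genes for Dexa minus Ctr and 0 to 1 of the 9. The cause of these shifts was not tested. The IFN-γ calls of Nfe2l2, Hmox1, Gclm, Keap1 and Bach2 held in all 11 fits without 1 library, with edgeR adjusted p-values up to 0.0332, and under RLE scaling, no filter, effective-length offsets and DESeq2 with the block. Mafk and Nqo1 had the fewest reads of the 9, 80 to 368 per library.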
